A study of Mus musculus with 65 samples.

Results

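The extracellular matrix genes described here are 40 named genes for collagens and other secreted matrix proteins, followed in whole mammary glands and in mammary tumours of mice with both copies of Tgfb1 or heterozygous for it. Each gene was read from the probe set with the highest mean level among those that the annotation assigns to that gene alone, and the choice was made separately in each tissue. Of the 40 genes, 37 had such a probe set, out of 18194 genes on the arrays, and all 37 lay over the filter on low levels in glands and in tumours. Fbn1 and Efemp2 were not named by the annotation used here, and Loxl2 was read only by probe sets shared with another gene, so the 3 have no values.

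Transforming growth factor beta 1, the product of Tgfb1, is stored in the matrix in a latent form and signals, once activated, through its receptors to Smad proteins. In connective tissue it is known to raise transcription of collagens, fibronectin and the enzymes that cross-link them, and ionizing radiation is known to activate it in the mammary gland. Fibrillar collagens form the load-bearing fibres of the stroma, type IV collagen and nidogen build the basement membrane under epithelium and vessels, and proteoglycans and elastic fibre proteins set the spacing and recoil of the fibres. In the mammary gland, fibroblasts, adipocytes, myoepithelial cells and vessel cells all contribute to this matrix.

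The glands came from 10-week-old BALB/c littermates, Tgfb1 wild type or Tgfb1 heterozygote, and all had received estrogen and progesterone 2 days before exposure. There were 3 wild-type glands after sham irradiation, 3 taken 1 week after 10 cGy and 3 taken 4 weeks after 10 cGy, and in heterozygotes 3, 2 and 3. All shams were taken at 1 week, so a comparison of 4 weeks with sham also spans 3 weeks of age. RNA came from the posterior end of the inguinal gland after removal of the lymph node. The tumours grew from p53null mammary fragments, transplanted into fat pads whose own epithelium had been cleared at 3 weeks of age, in BALB/c female hosts that were wild type or Tgfb1 heterozygote and had been irradiated or sham-treated 3 days earlier. Wild-type hosts gave 9 tumours after sham treatment and 23 after irradiation, and heterozygous hosts 6 and 10. The host genotype thus marks the stroma around p53null donor tissue, and the sources used here give no dose for the hosts. 1 tumour carries both labels for treatment and was placed with the irradiated wild-type hosts by its title. The labels do not say that gland repeats are separate animals, so gland p-values measure the spread between these samples, which may be partly technical.

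Array medians were close, at 4.86 to 4.93 log2 in glands and 5.84 to 5.96 log2 in tumours, and the 2 tissues were scaled apart and are not compared. Tgfb1 itself ranged from 4.57 to 5.45 log2 in wild-type glands and from 3.81 to 4.67 in heterozygous glands, a difference of -0.84 (SE 0.13, adjusted p = 0.0351, limma) over the 3 conditions. 4 wild-type glands stood apart for skeletal muscle genes, 2 of them sham, 1 at 1 week and 1 at 4 weeks, and 3 glands (1 sham wild-type, 1 wild-type at 1 week and 1 sham heterozygous) for B cell genes. 4 tumours were low in epithelial genes, 1 from a sham and 3 from irradiated wild-type hosts. In whole tissue, fewer cells of a type and less RNA per cell cannot be told apart.

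The RefSeq promoter table (GRCm38.p6) held 23 of the 37 measured genes. The first pair of sequences below shows the 250 bases before the start of Col1a2 and Col3a1, 2 fibrillar collagens whose gland values are set out by genotype further on. Capitals mark the CCAAT box of Col1a2, whose first base lies 109 bases before the start, and a TATAAA of Col3a1, 117 bases before the start. The short last sequence is the stretch where the windows around the starts of Col4a1 and Col4a2 overlap: these genes lie head to head and are read in opposite directions, and they are shown because their products assemble into 1 molecule and their levels correlated at r = 0.98 over the tumours.
Col1a2 promoter, chr6:4505368-4505617, plus strand: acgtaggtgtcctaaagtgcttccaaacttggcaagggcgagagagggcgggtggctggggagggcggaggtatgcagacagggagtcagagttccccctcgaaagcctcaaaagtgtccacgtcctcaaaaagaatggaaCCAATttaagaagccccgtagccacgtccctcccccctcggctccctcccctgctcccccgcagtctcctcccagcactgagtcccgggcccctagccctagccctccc
Col3a1 promoter, chr1:45311288-45311537, plus strand: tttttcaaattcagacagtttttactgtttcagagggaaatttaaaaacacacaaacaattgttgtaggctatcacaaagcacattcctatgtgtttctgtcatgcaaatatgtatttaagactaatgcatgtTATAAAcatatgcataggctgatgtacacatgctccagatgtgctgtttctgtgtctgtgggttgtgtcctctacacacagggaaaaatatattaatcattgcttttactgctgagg
Col4a1 and Col4a2 shared start region, chr8:11312805-11312826, plus strand: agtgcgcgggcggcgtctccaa
On either strand of the 250 upstream bases, CCAAT was found in 9 of 23 members (39.1%) and in 34.5% of 27025 mouse promoters. TATAAA was found in 3 of 23 members (13%) and in 13% of all promoters. GTCTG, the letters of the Smad box, was found in 10 of 23 members (43.5%) and in 42.1% of all promoters. These shares describe letters in this window and show no binding.

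Between genotypes, most matrix genes read less in Tgfb1 heterozygous glands than in wild-type glands, and Col1a1, Col1a2, Eln and Lox had the smallest p-values, but no member passed the test after adjustment over all genes. Averaged over sham, 1 week and 4 weeks, 31 of the 37 members had a difference below 0 (heterozygous minus wild-type), as did 55.3% of all 12945 tested genes. At an unadjusted p under 0.05, 8 members were lower and 0 higher, where 7.56% of all genes were lower and 4.48% higher. Leaving out each gland in turn gave 8 to 13 members lower, where 5.14% to 9.05% of all genes were lower. It was 13 without the first wild-type gland at 1 week (6.84% of all genes) or the third sham wild-type gland (6.66%). Leaving out the B cell-rich glands gave 15 (8.07%). The median member difference was -0.146 log2 beside -0.0189 over all genes. After adjustment 0 members were called, and of all genes 6 (0.0463%). By role, 5 of 5 fibrillar collagens, 4 of 4 network and beaded collagens, 3 of 3 fibril-associated collagens and 6 of 6 measured elastic fibre genes lay below 0, beside 3 of 5 basement membrane genes, 4 of 6 glycoproteins, 4 of 5 proteoglycans and 2 of 3 processing enzymes.

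Col1a1 encodes the main chain of type I collagen, the principal fibre of the stroma. Its level was 9.95, 10.49 and 9.95 log2 in the 3 sham wild-type glands, 10.01, 10.18 and 10.04 at 1 week and 10.35, 10.93 and 10.49 at 4 weeks. In heterozygous glands it was 9.70, 9.91 and 9.75 after sham, 9.78 and 9.88 at 1 week and 9.83, 9.66 and 9.56 at 4 weeks. All 8 heterozygous glands lay under all 9 wild-type glands, and Col1a1 was the 1 member of 37 for which the genotypes did not overlap in this direction. Of all tested genes, 0.0309% had every heterozygous gland under every wild-type gland, and 0.0618% had the reverse. The averaged genotype difference was -0.50 (SE 0.10, 95% interval -0.70 to -0.30), with an adjusted p of 0.0843 in limma. The mean of both Col1a1 probe sets gave -0.54 (adjusted p = 0.105).

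Col1a2, the partner chain of type I collagen, read 13.45, 13.69 and 13.40 log2 in sham wild-type glands, 13.42, 13.66 and 13.60 at 1 week and 13.58, 13.80 and 13.64 at 4 weeks. The heterozygous values were 13.31, 13.31 and 13.12, then 13.31 and 13.28, then 13.56, 13.39 and 13.29. Only the first 4-week heterozygous gland reached into the wild-type range, and the averaged difference was -0.26 (SE 0.06, adjusted p = 0.154). Col3a1, the type III collagen of pliable tissue, read 13.70, 13.85 and 13.63 in sham wild-type glands, 13.68, 13.75 and 13.62 at 1 week and 13.66, 13.90 and 13.82 at 4 weeks. Its heterozygous values were 13.54, 13.54 and 13.41, then 13.54 and 13.56, then 13.83, 13.62 and 13.70. The sham and 1-week heterozygous glands lay under all wild-type glands for Col3a1 and the 4-week ones did not, with an averaged difference of -0.15 (SE 0.05, adjusted p = 0.304). The share of all genes with this pattern was not counted. Col5a2, a chain of the type V collagen that seeds and thins fibres, read 11.72 to 12.42 log2 in wild-type glands and 11.48 to 11.97 in heterozygous glands, with a difference of -0.29 (SE 0.09, adjusted p = 0.294). Col5a1, its partner chain, differed by -0.18 (SE 0.13). All 5 fibrillar collagens were thus below 0, 4 of them at an unadjusted p under 0.05, with a median of -0.261.

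**Figure D1:**
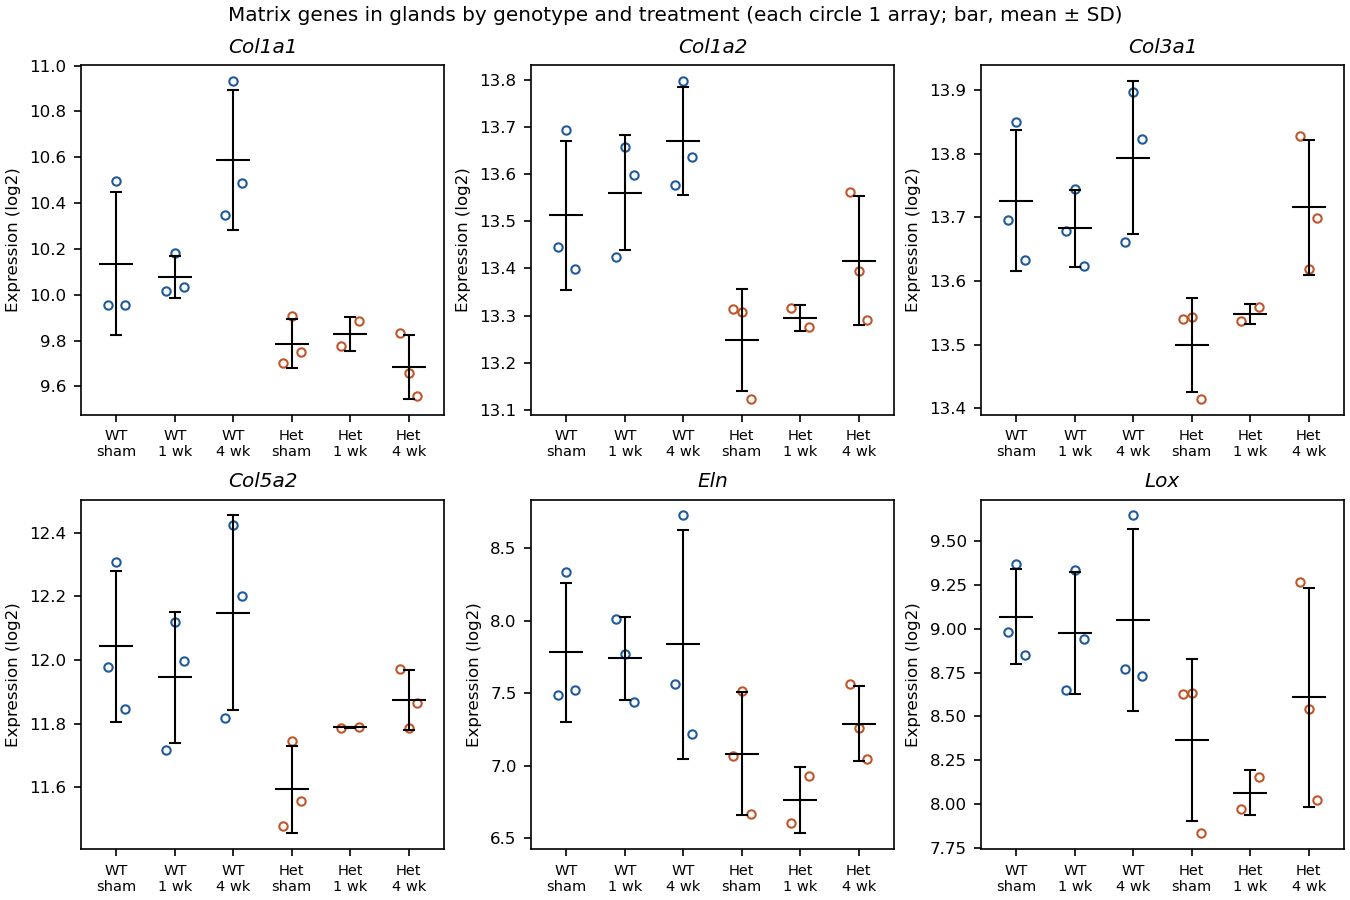
Levels in log2 of 6 matrix genes in each of the 17 glands, by genotype and treatment (WT, wild type; Het, Tgfb1 heterozygote; bars, mean ± SD of 2 or 3 arrays; each panel has its own axis). For Col1a1 the 8 heterozygous glands span 9.56 to 9.91 and the 9 wild-type glands 9.95 to 10.93, while the other 5 genes overlap.

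Elastic fibre genes had the lowest role median. Eln, the elastin core protein, read 7.49, 8.34 and 7.52 log2 in sham wild-type glands, 8.01, 7.77 and 7.44 at 1 week and 7.57, 8.73 and 7.22 at 4 weeks. In heterozygous glands it read 7.07, 7.52 and 6.67, then 6.60 and 6.93, then 7.56, 7.26 and 7.05. The heterozygous values ran from 6.60 to 7.56 and the wild-type values from 7.22 to 8.73, with overlap, and the averaged difference was -0.74 (SE 0.21, adjusted p = 0.241), or -0.38 with the mean of both Eln probe sets. Mfap4, a microfibril-associated protein, had the largest averaged difference among the members, -0.93, but also the largest error (SE 0.48, adjusted p = 0.442). It ran from 4.88 to 8.02 in wild-type glands, with 4 of them above 6.53, the highest heterozygous value. Mfap5, another microfibril protein, differed by -0.42 (SE 0.16, adjusted p = 0.348), Fbln2 by -0.31 (SE 0.15), Fbln5 by -0.14 (SE 0.14) and Fbln1 by -0.01 (SE 0.15). All 6 measured elastic fibre genes were below 0, 2 at an unadjusted p under 0.05, with a median of -0.365.

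Lox, lysyl oxidase, oxidizes lysines so that collagen and elastin chains can cross-link. It read 8.98, 9.37 and 8.85 log2 in sham wild-type glands, 8.65, 9.34 and 8.94 at 1 week and 8.77, 9.65 and 8.73 at 4 weeks, and in heterozygous glands 8.63, 8.64 and 7.84, then 7.98 and 8.16, then 9.27, 8.54 and 8.02. The first 4-week heterozygous gland was the single one inside the wild-type range, and the averaged difference was -0.68 (SE 0.19, adjusted p = 0.248). It was -0.40 with the mean of the 3 Lox probe sets, of which the dimmest (3.03 log2) lay under the filter of 4.15. Loxl1, a relative of Lox, differed by -0.19 (SE 0.15), and Pcolce, which speeds removal of the procollagen end piece, by 0.10 (SE 0.17).

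The other roles held smaller or less certain differences. Among glycoproteins, Sparc, a collagen-binding matricellular protein, differed by -0.21 (SE 0.07, adjusted p = 0.312) and Fn1, fibronectin, by -0.29 (SE 0.14, adjusted p = 0.426), while Thbs1, thrombospondin 1, an activator of latent TGF-beta, was above 0 at 0.20 (SE 0.19). Fn1 spanned 11.20 to 12.23 log2 in wild-type glands and 11.37 to 11.69 in heterozygous glands. The fibril-associated collagens, which sit on the surface of fibres, were all 3 below 0 with a median of -0.361, led by Col12a1 at -0.52 (SE 0.32) and Col14a1 at -0.36 (SE 0.18). Col12a1 ranged from 3.94 to 6.74 log2 and so lay near the filter of 4.15 in some glands.

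Basement membrane genes were split, with 3 of 5 below 0. Nid1, nidogen, which links laminin to type IV collagen, differed by -0.19 (SE 0.10), Col4a1 by -0.12 (SE 0.06), Col4a2 by -0.07 (SE 0.06), Col15a1 by 0.05 (SE 0.06) and Col18a1, the source of endostatin, by 0.15 (SE 0.14). The type VI collagens, which form beaded filaments around cells, lay near 0, with Col6a1 at -0.09 (SE 0.10), Col6a3 at -0.07 (SE 0.08) and Col6a2 at -0.00 (SE 0.08, SE larger than the difference). Of the proteoglycans, Fmod differed by -0.33 (SE 0.30) and Bgn by -0.21 (SE 0.11), while Dcn, decorin, which coats collagen fibres and binds TGF-beta, differed by -0.02 (SE 0.09). In the plot of all 37 differences the points of the fibrillar and type VI chains lie below 0, and the 95% intervals of Col5a1 and of the 3 type VI chains cross it.

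**Figure D2:**
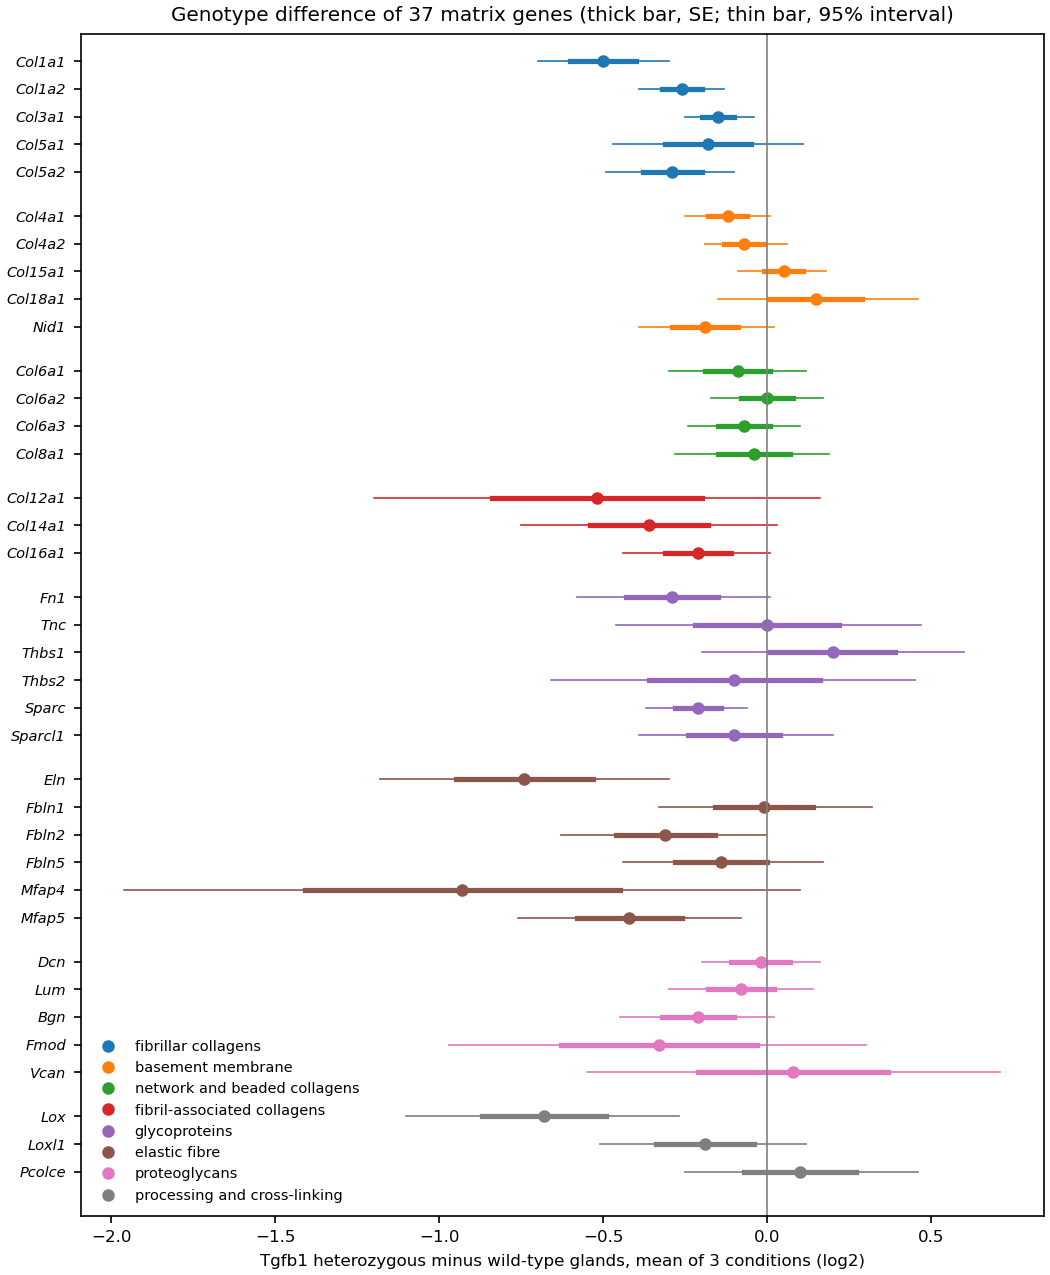
Averaged difference in log2, heterozygous minus wild-type glands, for the 37 measured matrix genes grouped by role (point, estimate; thick bar, SE; thin bar, 95% interval). Col1a1 lies at -0.50 with an interval of -0.70 to -0.30, Mfap4 at -0.93 with a wide one, and 31 of the 37 points lie below 0.

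Skeletal muscle genes differed between glands: all 8 lay below 0 in the averaged genotype comparison (median -1.6), 0 of them at an unadjusted p under 0.05, and 7 of 8 lay above 0 at 1 week (median 0.243). The mean over the 8 genes ran from 4.35 to 11.75 log2 in sham wild-type glands, 4.27 to 9.71 at 1 week and 3.99 to 9.95 at 4 weeks, and in heterozygotes from 4.20 to 7.79, 5.13 to 8.00 and 4.82 to 5.32. Without the 4 muscle-rich glands, all wild type, 1 sham wild-type gland was left, the median member difference was -0.12 and Col1a1 differed by -0.46. With the skeletal muscle list as a covariate and every gland kept, the median was -0.11 and 27 of 37 members lay below 0. At an unadjusted p under 0.05, 7 were then lower and 0 higher (5.58% and 3.17% of all genes). The fibroblast list averaged 9.77, 9.96 and 9.57 log2 in wild-type glands and 9.77, 9.47 and 9.73 in heterozygous glands (sham, 1 week, 4 weeks). With that list as a covariate, Col1a1 passed the test at -0.45 (adjusted p = 0.0396, limma). The member median was then -0.10, with 28 of 37 members below 0. At an unadjusted p under 0.05, 9 were lower and 1 higher in that fit (8.35% and 4.48% of all genes).

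Taken by condition, the member median lay below 0 at each time, and whether the conditions differ was tested in the interactions given further on. After sham treatment 32 of 37 members lay below 0 (50.6% of all genes) and 7 were lower and 0 higher at an unadjusted p under 0.05 (2.16% and 1.4% of all genes), with a median of -0.157. Leaving out each gland in turn gave 0 to 8 lower (1.26% to 4.42% of all genes) and a median of -0.25 to -0.05. Without the second sham wild-type gland it was 0 lower (1.26%) and -0.05, and without the third sham wild-type gland 8 lower (1.8%) and -0.25. Without the third sham heterozygous gland it was 1 lower (1.96%). The count was 4 without the first sham heterozygous gland, the second heterozygous gland at 4 weeks or the third wild-type gland at 1 week. These 7 were Col5a2, Col3a1, Col1a2, Col8a1, Col4a1, Col1a1 and Lox. Col5a2 read 11.98, 12.31 and 11.85 log2 in sham wild-type glands and 11.48, 11.74 and 11.56 in sham heterozygous glands, a difference of -0.45 (SE 0.15, adjusted p = 0.965). Col3a1 differed by -0.23 (SE 0.08), Col1a1 by -0.35 (SE 0.16) and Col8a1, a short-chain network collagen, by -0.43 (SE 0.18). No gene on the arrays (0%) passed after adjustment in sham glands. Leaving out the muscle-rich glands leaves 1 sham wild-type gland. The member median was then -0.17, and Col1a1 differed by -0.17 and Col8a1 by -0.03. With the skeletal muscle list as a covariate and every gland kept, 26 of 37 members lay below 0 and the median was -0.10. At an unadjusted p under 0.05, 2 were then lower and 0 higher (1.32% and 1.03% of all genes).

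At 1 week after 10 cGy, 28 of 37 members lay below 0 (56.9% of all genes) and 4 were lower and 0 higher at an unadjusted p under 0.05 (5.32% and 2.53% of all genes), with a median of -0.193. Leaving out each gland in turn gave 0 lower without the first heterozygous gland at 1 week, 2 without the second, 1 without the second wild-type gland at 1 week and 11 without the first, which is B cell-rich, with medians of -0.29 to -0.12. Of all genes, 3.89% were lower without the second wild-type gland at 1 week and 5.98% without the first. With every gland kept, the 4 were Mfap5, Eln, Lox and Col1a2. Mfap5 read 9.14, 9.68 and 9.64 log2 in wild-type and 8.68 and 8.68 in heterozygous glands, a difference of -0.81 (SE 0.30, adjusted p = 0.571). Eln differed by -0.98 (SE 0.38) and Lox by -0.91 (SE 0.36). For each of these 3, named here for their p in this comparison, both heterozygous glands lay under the 3 wild-type glands. The share of all genes that do so was not counted. With the mean of probe sets Eln differed by -0.55 and Lox by -0.59. In this comparison Col1a1 differed by -0.25 (SE 0.18, adjusted p = 0.758), or -0.41 with the mean of probe sets. At this time 6 of the 7 fibroblast list genes also lay below 0, 2 of them at an unadjusted p under 0.05. With that list as a covariate, 19 of 37 members lay below 0 and the median was -0.02. At an unadjusted p under 0.05, 0 were then lower and 1 higher (4.68% and 1.98% of all genes). Mfap5 was then -0.35, Eln -0.62, Lox -0.47, Col1a2 -0.11 and Col1a1 -0.03.

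At 4 weeks Col1a1 had its widest gap. The 3 wild-type glands (10.35, 10.93 and 10.49 log2) lay above the 3 heterozygous glands (9.83, 9.66 and 9.56), a difference of -0.90 (SE 0.16, 95% interval -1.24 to -0.56, adjusted p = 0.11). How many of all genes separate in this way at 4 weeks was not counted. Using the mean of both Col1a1 probe sets, the difference was -0.70 (adjusted p = 0.403). Without the second sham wild-type gland, which enters through the shared spread, the difference of -0.90 passed the test at an adjusted p of 0.0434. At 4 weeks 25 of 37 members lay below 0 (51.1% of all genes), and 3 were lower and 0 higher at an unadjusted p under 0.05 (3.56% and 2.39% of all genes), with a median of -0.123. Leaving out each gland in turn gave 1 to 6 lower (1.92% to 5.28% of all genes) and a median of -0.17 to -0.02. It was 6 lower without the first wild-type gland at 4 weeks, 5 without the first heterozygous gland, 1 without the second, 2 without the third, and 2 lower with a median of -0.02 and 19 of 37 below 0 without the second wild-type gland. With every gland kept, the 3 were Col1a1, Col1a2 at -0.25 (SE 0.10) and Col4a1 at -0.23 (SE 0.10). With the skeletal muscle list as a covariate, 21 of 37 members lay below 0 (median -0.06), and with the fibroblast list 27 (median -0.17). At an unadjusted p under 0.05, 1 and 8 were then lower (2.36% and 3.34% of all genes). In either fit 0 were higher (1.88% and 2.36% of all genes). With no covariate, 2 genes of the whole array passed (0.0154%), neither of them a member. The epithelium list ran from 10.87 to 10.95 log2 in wild-type and 10.34 to 10.65 in heterozygous glands at 4 weeks, without overlap. The adipocyte list ran from 11.16 to 11.58 and 11.47 to 11.82. The smooth muscle, myoepithelium and pericyte list ran from 9.43 to 9.70 and 9.14 to 9.59. The part of these lists in the result was not tested.

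Other matrix genes outside the 37 were read from lists. Of 31 tested genes of further matrix proteins, 24 lay below 0 in the averaged genotype comparison and 7 were lower and 0 higher at an unadjusted p under 0.05, where 55.3% of all genes lay below 0, 7.56% were lower and 4.48% higher. The 3 with the smallest p were Col4a5, a basement membrane chain, at -0.81 (SE 0.20, adjusted p = 0.188), Col11a1, a minor fibrillar chain, at -0.76 (SE 0.21, adjusted p = 0.226), and Col7a1, of anchoring fibrils, at -0.47 (SE 0.13, adjusted p = 0.248). At 4 weeks alone the 95% interval of Col7a1 ran from -1.48 to -0.53 (adjusted p = 0.298), and Col11a1 differed by -1.28 (SE 0.34, adjusted p = 0.484). Of 21 tested genes for collagen folding, cleavage and cross-linking, 14 lay below 0 and 0 reached an unadjusted p under 0.05, with a median of -0.0504, beside the same shares of all genes.

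Across time after 10 cGy, basement membrane genes read more at 4 weeks than at 1 week, and none of the members passed after adjustment. These times also differ by 3 weeks of age, and no sham glands were taken at 4 weeks, so time after exposure and age cannot be told apart. Averaged over the genotypes, 29 of 37 members lay above 0 (63.2% of all genes) and 7 were higher and 0 lower at an unadjusted p under 0.05 (11.4% and 4.28% of all genes), with a median of 0.161 beside 0.0584 over all genes. 9 genes of the array passed (0.0695%), none a member. The basement membrane group lay above 0 in 5 of 5 genes, 3 of them at an unadjusted p under 0.05. In the same comparison the 5 endothelium markers all lay above 0 (median 0.19), and so did 6 of 7 markers of smooth muscle, myoepithelium and pericytes (median 0.292), each list with 1 gene at an unadjusted p under 0.05. Their list means ran from 7.51 to 8.06 log2 at 1 week and 7.65 to 8.16 at 4 weeks for endothelium, and from 9.15 to 9.35 and 9.14 to 9.70 for the other list, and their part in the result was not tested. Leaving out the muscle-rich glands gave 4 members higher (5.93% of all genes), and without the second heterozygous gland at 1 week it was also 4 (7.15%).

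Col4a1, a chain of the type IV collagen network, read 11.15, 11.27 and 11.16 log2 in wild-type glands at 1 week and 11.67, 11.57 and 11.90 at 4 weeks, against 11.38, 11.33 and 11.42 after sham. In heterozygous glands it read 11.06, 11.23 and 11.17 after sham, 11.16 and 11.43 at 1 week and 11.63, 11.47 and 11.35 at 4 weeks. The wild-type 4-week glands lay above all other wild-type glands, and the 4-week heterozygous glands above the sham ones. For neither pattern was the share of all genes counted. The averaged difference of 4 weeks from 1 week was 0.35 (SE 0.08, adjusted p = 0.103). Col4a2, which pairs with Col4a1 in the same molecule, read 10.44, 10.42 and 10.40 at 1 week and 10.86, 10.81 and 10.65 at 4 weeks in wild-type glands. Its heterozygous values were 10.44 and 10.62 at 1 week and 10.82, 10.52 and 10.52 at 4 weeks, which overlap, and its averaged difference was 0.22 (SE 0.07, adjusted p = 0.217).

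Col15a1, a basement membrane collagen of vessels and muscle, read 7.70, 7.65 and 7.70 log2 in sham wild-type glands, 7.29, 7.46 and 7.33 at 1 week and 7.54, 7.73 and 7.81 at 4 weeks. It was lowest at 1 week, with a difference from sham of -0.33 (SE 0.10, adjusted p = 0.958). Heterozygous glands read 7.68, 7.46 and 7.74, then 7.49 and 7.62, then 7.64, 7.76 and 7.71, where 1 week overlapped sham. The averaged difference of 4 weeks from 1 week was 0.24 (SE 0.08, adjusted p = 0.206).

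Thbs1 read 8.70, 8.80 and 9.01 log2 at 1 week and 9.24, 9.32 and 9.49 at 4 weeks in wild-type glands. In heterozygotes it read 8.76 and 8.94 at 1 week and 9.75, 10.10 and 9.56 at 4 weeks, so in each genotype every 4-week gland exceeded every 1-week gland. The share of all genes that do so was not counted. The averaged difference was 0.73 (SE 0.23, adjusted p = 0.205). The sham glands were scattered, from 8.46 to 9.36 in wild type and from 8.37 to 9.87 in heterozygotes. Of the other members at an unadjusted p under 0.05, Col12a1 differed by 1.12 (SE 0.40), Sparc by 0.25 (SE 0.09) and Col3a1 by 0.14 (SE 0.06).

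**Figure D3:**
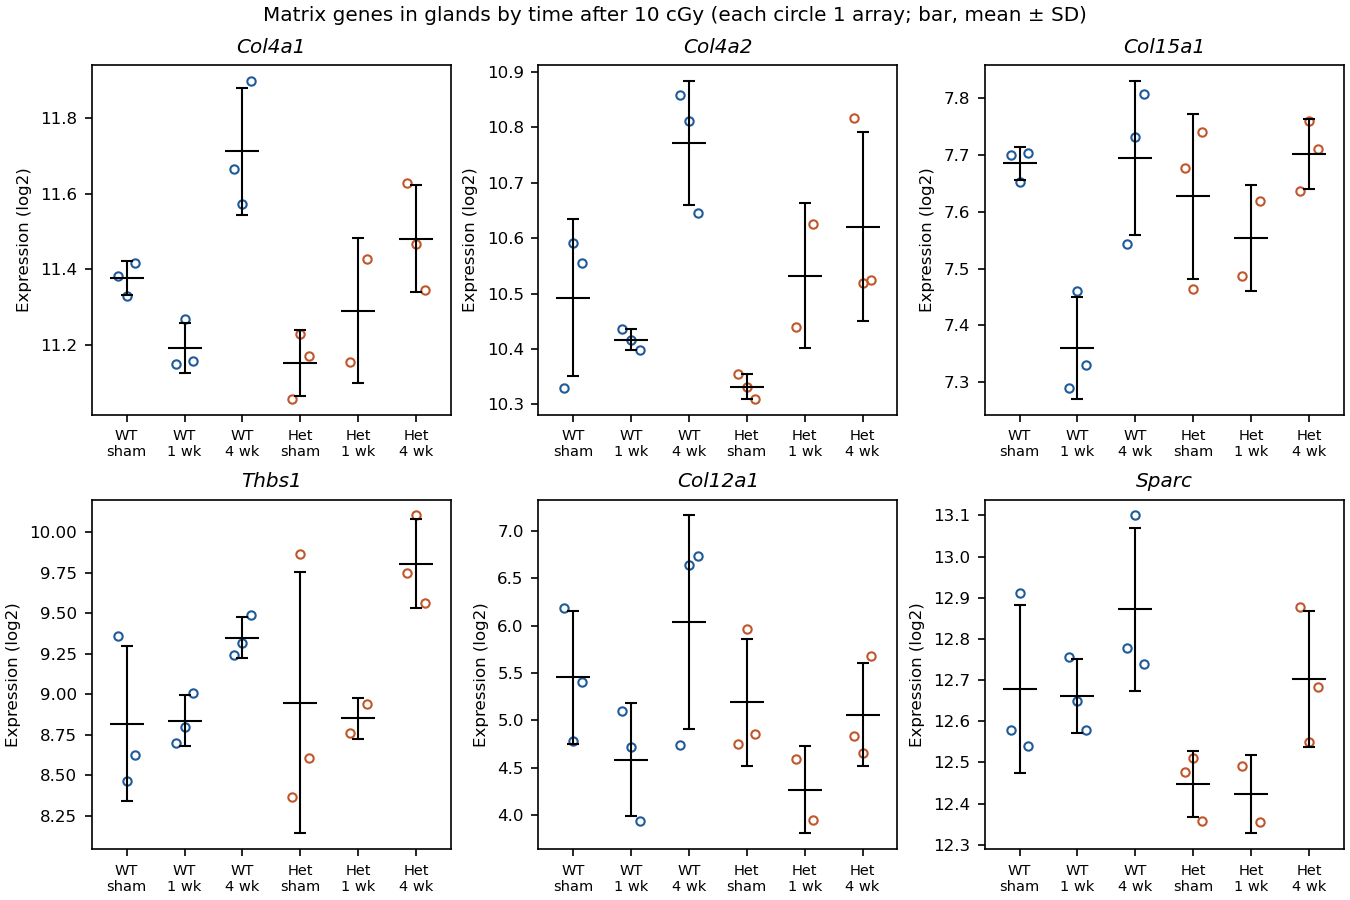
Levels in log2 of 6 matrix genes in the 17 glands by genotype and time after 10 cGy (bars, mean ± SD of 2 or 3 arrays; each panel has its own axis). Thbs1 and wild-type Col4a1 and Col4a2 show 4-week glands above the 1-week glands of the same genotype, and Col15a1 in wild-type glands is lowest at 1 week (7.29 to 7.46). The share of all genes with such gaps was not counted.

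Against sham, which shares its control glands between the times, wild-type glands at 1 week had 21 of 37 members below 0 (54.7% of all genes), 1 of them, Col15a1, lower and 0 higher at an unadjusted p under 0.05 (2.83% and 1.71% of all genes), and a median of -0.019. Wild-type glands at 4 weeks had 27 members above 0 (54.7% of all genes) and 3 higher and 0 lower at an unadjusted p under 0.05 (1.56% and 0.726% of all genes), Col4a1 by 0.33 (SE 0.10), Col1a1 by 0.45 (SE 0.16) and Col4a2 by 0.28 (SE 0.10), each with an adjusted p of 1 in limma. Without the muscle-rich glands, which leaves 1 wild-type sham gland, the Col1a1 and Col4a2 values were 0.68 and 0.50. Leaving out 1 gland turned the median in wild-type glands: at 1 week it was 0.09 without the second sham gland and 0.08 without the first 1-week gland, and at 4 weeks -0.01 without the third sham gland or the second 4-week gland. The 4-week count was 5 higher without the second sham gland and 2 without the first sham gland, the third sham gland or the second 4-week gland. Heterozygous glands at 1 week had 24 members below 0 (63.9% of all genes) and 0 at an unadjusted p under 0.05 in either direction (2.68% of all genes lower, 1.28% higher). Heterozygous glands at 4 weeks had 28 above 0 (52.8% of all genes) and 5 higher and 0 lower at an unadjusted p under 0.05 (2.91% and 2.38% of all genes), Col4a1 by 0.33 (SE 0.10, adjusted p = 0.704), Col4a2 by 0.29 (SE 0.10), Thbs1 by 0.86 (SE 0.31), Col3a1 by 0.22 (SE 0.08) and Lum, lumican, by 0.36 (SE 0.17). Without the B cell-rich glands Thbs1 differed by 0.57, and without the second sham heterozygous gland by 1.32. The count was 2 higher without the third sham or the first 4-week heterozygous gland and 3 without the first sham one. The 4-week difference of Col4a1 was thus the same 0.33 in both genotypes, whereas that of Col1a1 was 0.45 in wild-type and -0.10 (SE 0.16) in heterozygous glands.

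The test of that last difference, the interaction of genotype with 4 weeks against sham, gave -0.56 for Col1a1 (SE 0.22, adjusted p = 1), and -0.18 with the mean of both probe sets. Col8a1 gave 0.60 (SE 0.26, adjusted p = 1), or 0.33 without the muscle-rich glands, and these were the 2 members at an unadjusted p under 0.05 (0.981% of all genes lower, 0.803% higher). At 1 week 0 members reached an unadjusted p under 0.05 in the interaction (2.21% of all genes lower, 0.842% higher), and the smallest p was that of Col4a1, at 0.32 (SE 0.15). Of the further matrix proteins, 8 of 31 were higher and 1 lower at 4 weeks than at 1 week at an unadjusted p under 0.05 (11.4% and 4.28% of all genes), led by Matn2, matrilin 2, at 0.62 (SE 0.14, adjusted p = 0.13). Of the 21 genes for collagen maturation, 1 was higher, Adamts3, a procollagen protease, at 0.64 (SE 0.21, adjusted p = 0.214), and 1 lower, Loxl4, at -0.27 (SE 0.09, adjusted p = 0.217).

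In tumours no matrix gene passed the test between hosts, and the spread among tumours of 1 group was wide. The median SD within groups was 0.96 log2 for the 37 members and 0.40 for all 12786 tested genes, and all 37 members exceeded the median of all genes. In glands the same medians were 0.31 and 0.20, with 28 of 37 members above. Between the lowest and the highest of the 48 tumours, Fmod, fibromodulin, spanned 140-fold, Dcn 73.7-fold, Lum 60.9-fold, Vcan 54-fold and Thbs2 51.1-fold. Col1a1 spanned 17.4-fold, Col1a2 7.82-fold and Sparc 6.8-fold.

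The highest and lowest values of the members, 74 in all, fell in 22 of the 48 tumours, and 5 tumours held 43 of them. The second tumour of sham heterozygous hosts had the highest value of 9 members and a mean over members of 11.79 log2. The fifth tumour of sham wild-type hosts had the highest value of 6 members (mean 11.43), and its endothelium list reached 12.07 log2, where the next tumour had 10.67. Repeat 18 of irradiated heterozygous hosts had the lowest value of 12 members (mean 8.98), repeat 3 of irradiated wild-type hosts that of 8 (mean 9.77), and the third tumour of sham heterozygous hosts that of 5 (mean 9.46). Each host comparison was repeated without each of these 5 in turn, and some of the values that moved by more than 1.5 times are given.

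Within wild-type hosts, irradiated minus sham, 31 of 37 members lay below 0 (49.6% of all genes), but 0 reached an unadjusted p under 0.05 (3.61% of all genes lower, 3.33% higher). The median was -0.20, and without the fifth sham tumour it was -0.04 with 23 below 0. In the same comparison all 7 fibroblast markers (median -0.324), all 5 endothelium markers (-0.358) and all 7 markers of smooth muscle, myoepithelium and pericytes (-0.144) lay below 0, 0 of them at an unadjusted p under 0.05. The fibroblast list ran from 6.91 to 10.11 log2 in sham and 7.40 to 9.72 in irradiated hosts, the endothelium list from 6.75 to 12.07 and 6.72 to 9.03, and the third list from 7.74 to 10.33 and 7.61 to 10.64. Their part in the result was not tested. Mfap5 had the smallest p. Its lowest, median and highest values were 7.09, 8.93 and 10.38 log2 in 9 sham tumours and 6.87, 8.32 and 9.24 in 23 from irradiated hosts, a difference of -0.66 (SE 0.33, adjusted p = 0.718). The ranges overlapped over most of their length. Col15a1 differed by -0.49 (SE 0.30, adjusted p = 0.778), and by -0.14 without the fifth sham tumour, which read 11.11 log2. Fibrillar collagens were 5 of 5 below 0 with small differences, Col1a1 at -0.21 (SE 0.37) and Col5a1 at -0.22 (SE 0.45), and without the fifth sham tumour they were -0.03 and -0.02, with Col5a2 above 0 at 0.07. Col6a2 differed by -0.47 (SE 0.41), Col6a1 by -0.46 (SE 0.46), Pcolce by -0.57 (SE 0.54), Loxl1 by -0.43 (SE 0.53), Lum by -0.54 (SE 0.46) and Thbs1 by -0.38 (SE 0.28). Without that tumour Col6a2 was -0.24, Col6a1 -0.23, Pcolce -0.32 and Loxl1 -0.26, and Col1a1 was -0.14 without repeat 3 of irradiated hosts.

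Within heterozygous hosts, 31 of 37 members again lay below 0 (49.3% of all genes), with a median of -0.357. Without the second sham tumour the median was -0.09 with 23 below 0, and without the third it was -0.60. At an unadjusted p under 0.05, 2 were lower, Vcan and Col16a1 (2.42% of all genes lower, 1.53% higher). It was 1 without the second sham tumour (2.8% of all genes lower) or without repeat 18 (2.03%), and 3 without the third sham tumour (2.1%). Vcan, versican, a large proteoglycan that holds water in provisional matrix, read 9.66, 10.44 and 11.21 log2 (lowest, median, highest) in 6 sham tumours and 6.43, 9.39 and 10.64 in 10 from irradiated hosts, a difference of -1.40 (SE 0.57, 95% interval -2.55 to -0.25, adjusted p = 1). It was -0.61 with the mean of its 8 probe sets, some of them under the filter on low levels. Col16a1, a fibril-associated collagen, read 10.06, 10.99 and 11.07 in sham and 8.93, 10.23 and 10.89 in irradiated hosts, a difference of -0.67 (SE 0.30, adjusted p = 1). The median of irradiated hosts lay under the lowest sham value for Vcan and above it for Col16a1, and the ranges overlapped for both. Fibrillar collagens were 5 of 5 below 0 with a median of -0.70, Col5a2 at -0.81 (SE 0.41) and Col1a1 at -0.80 (SE 0.48), which were -0.53 and -0.44 without the second sham tumour. Leaving out that tumour also moved Col5a1 from -0.70 to -0.29, Col3a1 from -0.42 to -0.21 and Col1a2 from -0.38 to -0.16. Fbln1, fibulin 1, differed by -0.84 (SE 0.53), Lox by -0.69 (SE 0.60), Fmod by -0.85 (SE 0.71), and Fn1 was above 0 at 0.67 (SE 0.48). Without the second sham tumour Lox was -0.26 and Fmod -0.45, and without the third Fn1 was 0.41. Here 4 of 7 fibroblast markers and 5 of 5 endothelium markers lay above 0. The smooth muscle, myoepithelium and pericyte list averaged 9.09 log2 in sham and 9.03 in irradiated heterozygous hosts.

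Vcan and Col16a1 lay the other way in wild-type hosts, at 0.62 (SE 0.44) and 0.35 (SE 0.23), and the interaction of host genotype with irradiation gave them the smallest p among the members. It was -2.02 for Vcan (SE 0.72) and -1.02 for Col16a1 (SE 0.38), each with an adjusted p of 1 in limma, and these 2 were the members at an unadjusted p under 0.05 (2.64% of all genes lower, 2.19% higher). Without the third tumour of sham heterozygous hosts 3 members were lower (2.17% of all genes). In wild-type hosts Vcan read 7.36, 9.26 and 10.18 log2 in sham and 6.80, 9.65 and 12.18 in irradiated tumours, and Col16a1 9.47, 9.99 and 10.54 and then 8.33, 10.49 and 11.37. The array carries 8 probe sets for Vcan, and their mean gave an interaction of -0.99, which is smaller than the value of the chosen probe set. The interaction shares its tumours with the comparisons above and is not a separate observation.

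**Figure D4:**
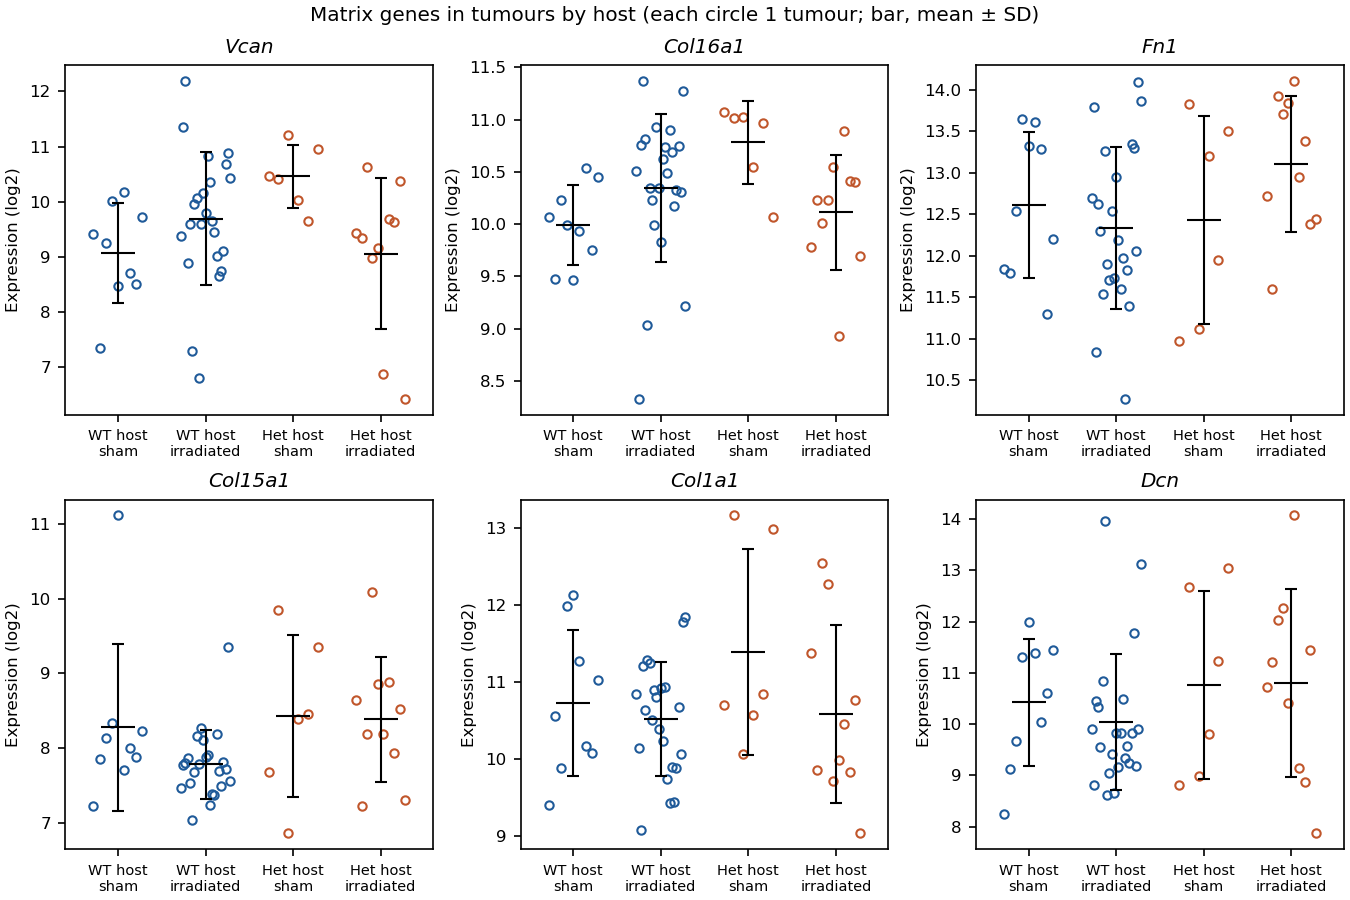
Levels in log2 of 6 matrix genes in 48 tumours by host genotype and treatment (each circle 1 tumour; bars, mean ± SD of 9, 23, 6 and 10 tumours; each panel has its own axis). Vcan and Col16a1 are highest in sham heterozygous hosts (means 10.46 and 10.78), and 1 sham wild-type tumour stands alone for Col15a1 at 11.11.

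Between sham hosts, heterozygous minus wild-type, 30 of 37 members lay above 0 (50.1% of all genes) and 2 were higher and 0 lower at an unadjusted p under 0.05 (2.82% and 2.46% of all genes), Col16a1 by 0.79 (SE 0.31, adjusted p = 0.872) and Vcan by 1.38 (SE 0.58, adjusted p = 0.923), or 0.69 with the mean of its probe sets. The median was 0.229, -0.01 without the second heterozygous tumour, 0.54 without the third and 0.46 without the fifth wild-type tumour. Without the third heterozygous tumour 1 was higher and 1 lower (2.64% and 2.29% of all genes). Col1a1 read 9.41, 10.57 and 12.13 log2 in wild-type and 10.06, 10.77 and 13.17 in heterozygous sham hosts, a difference of 0.66 (SE 0.49, adjusted p = 0.992) with wide overlap, and of 0.31 without the second heterozygous tumour. Between irradiated hosts 22 members lay above 0 (50% of all genes), and 2 were higher and 0 lower at an unadjusted p under 0.05 (2.5% and 3.1% of all genes), Fn1 and Col15a1. The median was 0.0957, 0.29 without repeat 18 of heterozygous hosts and 0.13 without the tumour that carries both labels. Without the latter tumour, 1 member was higher (2.29% of all genes). With every tumour kept, 1 of all genes passed (0.00782%), not a member. All 7 fibroblast markers, 5 endothelium markers and 8 epithelium markers also lay above 0 there, with medians of 0.413, 0.626 and 0.269. The smooth muscle, myoepithelium and pericyte list averaged 8.44 log2 in wild-type and 9.03 in heterozygous irradiated hosts. The adipocyte list averaged 6.06 and 6.90, and the macrophage list 10.97 and 10.89. The part of these lists was not tested. Fn1 read 10.28, 12.19 and 14.09 in wild-type and 11.60, 13.16 and 14.10 in heterozygous irradiated hosts, a difference of 0.76 (SE 0.36, adjusted p = 0.876). Col15a1 read 7.04, 7.78 and 9.35 and then 7.23, 8.36 and 10.09, a difference of 0.60 (SE 0.29, adjusted p = 0.886).

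In the lists beyond the members, Plod2, which hydroxylates collagen lysines for cross-linking, differed by -0.82 (SE 0.29, adjusted p = 1) in irradiated against sham heterozygous hosts. Col17a1, a transmembrane collagen of basal epithelial cells, differed by -2.34 there (SE 0.95, adjusted p = 1) and by 2.98 (SE 0.97, adjusted p = 0.872) in heterozygous against wild-type sham hosts, 2 values that share the sham heterozygous tumours. These were, of 20 maturation genes and 35 further matrix genes tested, the 1 and the 1 at an unadjusted p under 0.05 in heterozygous hosts, where 2.42% of all genes were lower and 1.53% higher. The epithelium list ran from 8.53 to 11.84, 7.53 to 12.37, 9.61 to 12.33 and 9.67 to 12.34 log2 (wild-type sham and irradiated, heterozygous sham and irradiated), and the fibroblast list from 6.91 to 10.11, 7.40 to 9.72, 7.06 to 10.01 and 7.26 to 10.25. With the epithelium list as a covariate, or without the 4 tumours low in it, no member was called in any of the 5 tumour comparisons, Vcan was -1.43 and -1.40 in heterozygous hosts and 1.53 and 1.52 between sham hosts, and the median between sham hosts was 0.41 and 0.30. No fit with the fibroblast list was made in tumours, so its part was not tested.

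Across the tumours, the chains of type I, IV and VI collagen correlated closely within each molecule, and a correlation of type I with type IV collagen was not detected. With each group's mean removed, Col1a1 and Col1a2, the chains of type I collagen, correlated at r = 0.90 and rho = 0.90 over 48 tumours (permutation p = 1e-05 for each, the smallest that 100000 resamples can give, adjusted p = 2e-05 over 18 relations). Within the 23 tumours of irradiated wild-type hosts r was 0.78, and without the 2 tumours farthest in Col1a1 it was 0.88. Col1a1 and Col3a1 correlated at r = 0.87 and rho = 0.85, with 0.71 within irradiated wild-type hosts and 0.85 without the farthest 2. Col4a1 and Col4a2 correlated at r = 0.98 and rho = 0.98, with 0.98 in either smaller set. Col6a1 correlated with Col6a2 at r = 0.98 (rho = 0.96) and with Col6a3 at 0.91 (rho = 0.84), and Dcn with Lum at 0.70 (rho = 0.77). The type V chains Col5a1 and Col5a2 correlated at r = 0.73 (rho = 0.73), under the values of Col1a1 with several other genes given next. The permutation p of r was 1e-05 for each of these. All these values share 1 normalization and the same RNA samples.

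Col1a1 and Col4a1 did not move together to a degree the test could detect, with r = 0.14 and rho = 0.15 (permutation p = 0.333 and 0.321, adjusted p = 0.333 and 0.34), r = -0.25 within irradiated wild-type hosts and 0.11 without the farthest 2 tumours. Of the 36 other members, 26 correlated with Col1a1 at an adjusted permutation p under 0.05 by both r and rho, 15 with r over 0.7, of which Col12a1 (0.89), Col6a2 (0.87) and Mfap5 (0.85) were among the highest. The share of all tested genes that do so was not counted, so these counts are not shown to be particular to matrix genes. Within irradiated wild-type hosts 5 had r over 0.7. For 3 members r was below 0 in all tumours, Col16a1 (-0.12), Sparcl1 (-0.08) and Thbs1 (-0.05). Lox correlated with Col1a1 at 0.77, Fn1 at 0.58 and Tnc, tenascin C, at 0.57, while Sparc went from 0.69 over all tumours to 0.35 within irradiated wild-type hosts. Eln and Fbln5, which binds elastin during fibre assembly, went from 0.39 to 0.05 in the same way.

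**Figure D5:**
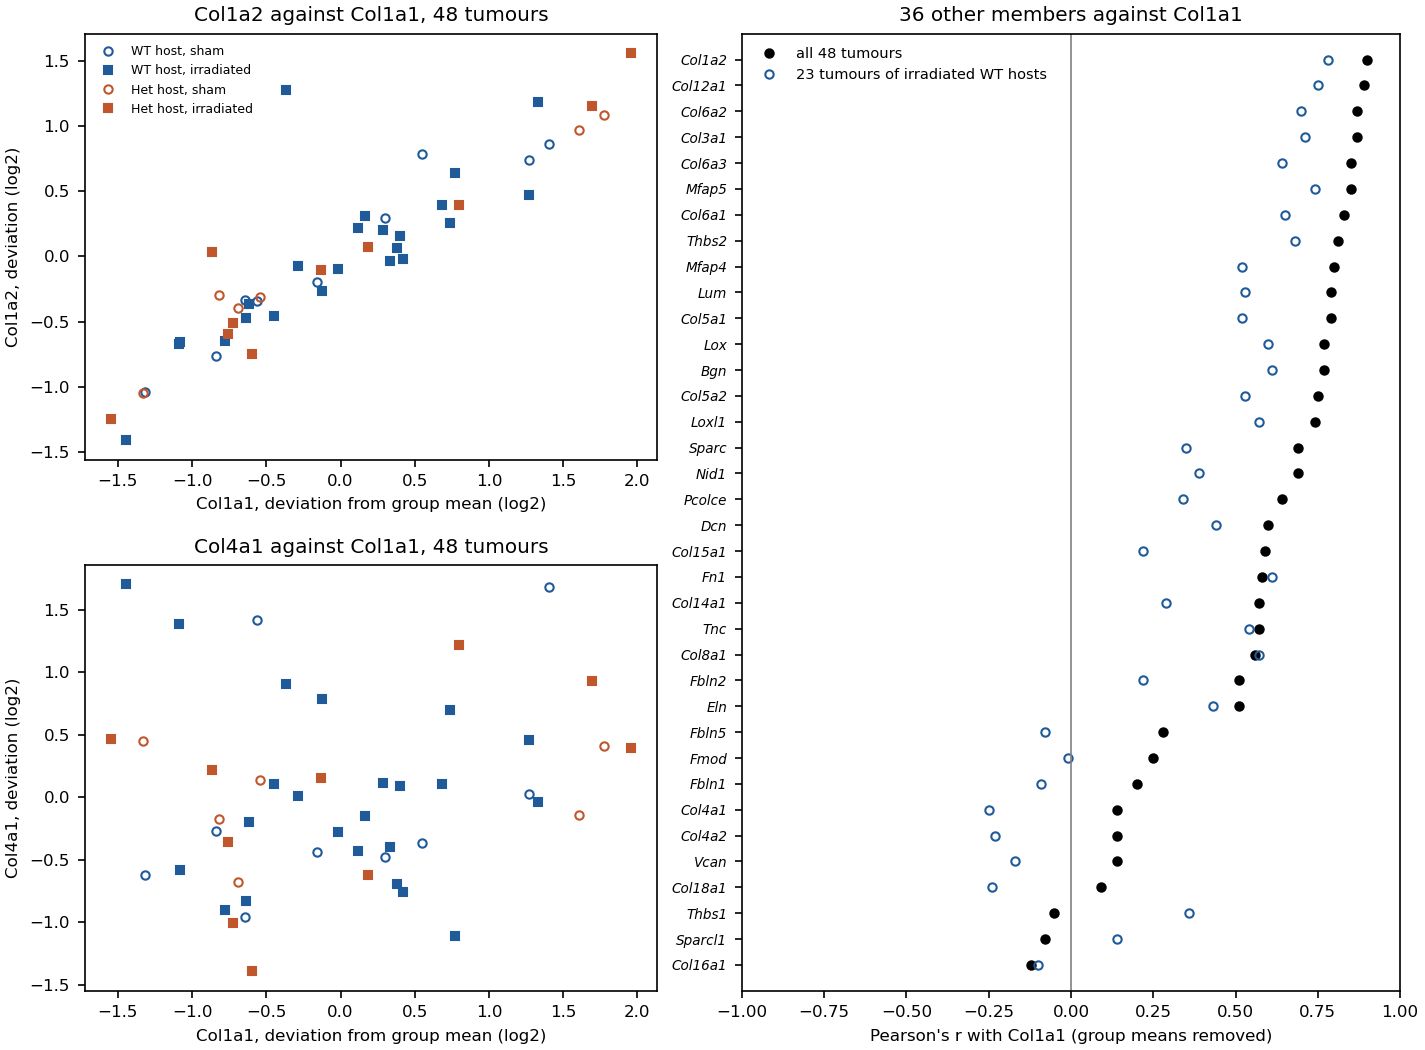
Deviations from group means in log2 of Col1a2 and Col4a1 against Col1a1 in 48 tumours (left) and Pearson's r of 36 matrix genes with Col1a1 over all 48 tumours and over the 23 of irradiated wild-type hosts (right). Col1a2 follows Col1a1 (r = 0.90), Col4a1 does not (r = 0.14), and 15 of the 36 genes have r over 0.7, a share not counted over all genes.

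The fibroblast list followed Col1a1 at r = 0.80 and rho = 0.73 (permutation p = 1e-05, adjusted p = 4e-05 and 2e-05 over 4 relations; 0.59 within irradiated wild-type hosts, 0.80 without the farthest 2 tumours). Its r with Col4a1 was 0.35 (permutation p = 0.0135, adjusted p = 0.0135) and its rho 0.36 (permutation p = 0.0119, adjusted p = 0.0119), with r of 0.26 and 0.24 in the smaller sets. The endothelium list gave r = 0.60 with Col1a1 (permutation p = 2e-05) and rho = 0.52 (permutation p = 0.00025), with r of 0.32 and 0.54 in the smaller sets. With Col4a1 it gave r = 0.56 (permutation p = 5e-05) and rho = 0.63 (permutation p = 1e-05), with r of 0.50 and 0.43 in those sets. The epithelium list gave r = -0.29 with Col1a1 (permutation p = 0.0432, adjusted p = 0.0519) and rho = -0.18 (permutation p = 0.232, adjusted p = 0.279). With Fn1 it gave r = -0.45 (permutation p = 0.001, adjusted p = 0.0015), but rho = -0.25 did not pass (permutation p = 0.0799, adjusted p = 0.111). The r with Fn1 was -0.22 without the 4 tumours low in epithelial genes.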

How the data were processed

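Affymetrix arrays of 17 glands and 48 tumours were used. The authors summarized probe sets with RMA, per the submitters' processing notes, version not given. They deposited gland values as linear intensity (array medians 29.08 to 30.56, taken here as log2) and tumour values as log2. Of 45101 probe sets, 34958 named 1 gene, 932 several and 9211 none, and 99.4% of Entrez identifiers matched RefSeq (GRCm38.p6). Genes under the 40th percentile of mean level were left out (4.15 log2 in glands, 5.14 in tumours).

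Group means were fitted in limma 3.58.1 (R 4.3.3) with moderated variance along a trend, once per tissue, and p-values were adjusted by Benjamini-Hochberg over all tested genes, threshold 0.05, two-sided. In all 11 gland and 5 tumour comparisons were made. They share samples, so they are not independent. Scripts were tested on simulated data. Correlations over tumours used permutation tests (scipy 1.17.1). Members and lists were chosen with earlier results of these data known. Named are the members past the threshold, otherwise the 5 with the smallest p, always Col1a1, Col1a2 and Col3a1, and the 2 widest differences per role. The Fbn1 pair was not analysed here. Array number limits the precision.

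Same-numbered glands were taken as paired where there were at least 3 pairs and every pair's deviations correlated over 0.1: wild-type sham with 4 weeks (0.12 to 0.22) and heterozygous sham with 4 weeks (0.11 to 0.32). Wild-type sham with heterozygous 1-week glands (0.22 to 0.28) had 2 pairs and was not counted. The check is from the data, and the labels name no shared litter or day.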

Additional observations from a re-analysis of the deposited data

Results flagged for a closer look

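In groups of 4 to 10 tumours, 4 of 111 gene and group sets held 1 tumour far from the others, where chance gives about 1 in 20. Col15a1 read 11.11 log2 in the fifth tumour of sham wild-type hosts, and the nearest of the other 8 read 8.34. Eln read 10.40 in the second tumour of sham heterozygous hosts, with the nearest at 8.02. Col8a1 read 8.97 in the third tumour of the same hosts, under the nearest at 10.82. Col14a1 read 11.01 in repeat 9 of irradiated heterozygous hosts, with the nearest at 9.22. Their causes were not tested.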

How the results depend on the processing

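No result of a comparison between groups lost a call, since 0 members were called. Members called went from 0 to 1, Col1a1 each time, in these settings: genotype averaged over conditions with the fibroblast list as a covariate (-0.45, adjusted p = 0.0396) or with the replicate block (-0.52, adjusted p = 0.0428); genotype at 4 weeks with the fibroblast list (-0.97, adjusted p = 0.0216), with the replicate block (-0.90, adjusted p = 0.0307) or without the second sham wild-type gland (-0.90, adjusted p = 0.0434). Leaving out each gland in turn gave 0 to 1 members called at 4 weeks (Col1a1 from -1.02 to -0.73) and 0 for the averaged comparison (Col1a1 from -0.54 to -0.44). The numbers do not pair the genotypes, and the replicate block changed no call for the paired sham and 4-week glands. The median 1-week interaction of the members was 0.16 with the fibroblast list as a covariate. Without the muscle-rich glands, Col8a1 in wild-type glands at 1 week against sham was 0.05, Thbs1 in wild-type glands at 4 weeks against sham -0.08 and Col12a1 in the 4-week interaction 0.36, each of opposite sign. Fbln1 in heterozygous hosts was 0.30 with the replicate block (adjusted p = 0.96). Sham and irradiated tumours of these hosts share no repeat number, so that block compares them only through wild-type tumours. Tumour numbers showed no pairing, so this value says little about the result. Among correlations, within irradiated wild-type hosts Eln with Fbln5 was 0.05 and Col1a1 with Sparc 0.35. The epithelium list with Col1a1 was -0.30 without the farthest 2 tumours, and with Fn1 and Dcn -0.22 and -0.09 without tumours low in epithelium. The causes were not tested. Settings from the fibroblast list, tumours left out for their markers and array sets were chosen after seeing the data. Leaving out each tumour in turn was not run, and signal over background was not measured, so how far dim genes such as Col12a1 are limited is unknown.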
